A study of Ovis aries with 6 samples.

Results

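The 10 genes described here encode the core of the Notch pathway: the receptors NOTCH1, NOTCH2, NOTCH3 and NOTCH4, the ligands JAG1, JAG2 and DLL4, and the target genes HEY1, HEY2 and HES1. They were chosen by name from the 30574 genes of the count files, and all 10 were present. Their transcripts were read in single-cell RNA sequencing of whole ovaries from 6 adult Hu sheep ewes in oestrus, killed soon afterwards, 3 with litters of at least 3 lambs (HLS) and 3 labelled with a litter size below 2 (LLS). No ewe received a treatment, 1 ovary per ewe was dissociated with collagenase and trypsin, and each ewe gave 1 droplet library in which a transcript is read near its 3′ end and counted once as a unique molecular identifier (UMI). Ewes are named HLS1 to HLS3 and LLS1 to LLS3.

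Notch receptors are single-pass membrane proteins that are cut after binding a Jagged or Delta-like ligand on a neighbouring cell, and the freed intracellular domain enters the nucleus and, with the factor RBPJ, switches on genes of the HES and HEY families, which encode transcriptional repressors. In blood vessels, Delta-like 4 and Notch restrain sprouting and specify arterial endothelium, and endothelial Jagged1 signals to Notch3 on pericytes and vascular smooth muscle. In the ovary, granulosa cells and the vessels of the follicle and corpus luteum are known sites of Notch signalling.

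The libraries held 43329214 to 75549906 UMIs each, and 36457 cells remained of 52290 barcodes after filtering and the removal of 2007 called doublets. Between 13 and 28 barcodes were shared by any pair of libraries, 0.16% to 0.32% of the smaller one. Cells were clustered without the 10 members and without 63 other Notch pathway genes, and the types were named from markers that held none of the members and, of the 63, EGFL7 alone, in the endothelial list. The 6 main types were endothelial-like (14880 cells), stromal-like (3886), granulosa-like (2962), immune-like (2708), perivascular-like (2672) and theca-like (1927) cells. Their marker genes were highest in their own type for 10 of 10, 8 of 8, 10 of 10, 10 of 10, 9 of 9 and 5 of 6 genes, respectively. Another 4317 cells, led by the smooth muscle genes ACTA2, TAGLN and CNN1 but carrying stromal markers, stayed unnamed. Median depth differed widely between the types, from 3112.5 UMIs per cell in immune-like to 14085 in theca-like cells.

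HLS2 and LLS1, an ewe of each group, stood apart from the other libraries, most clearly in endothelial-like cells. Their deviations from their group means, over genes within a type, correlated at 0.0443 (theca-like) to 0.607 (endothelial-like cells) over the 6 types. In theca-like and granulosa-like cells HLS3 and LLS3 correlated more highly (0.0960 and 0.189, against 0.0443 and 0.179). HLS2 and LLS1 also held nearly all cells of 1 endothelial cluster (1791 and 2285 of 4113) and of 1 pericyte-like cluster led by SPP1 and CADM4 (89 and 141 of 234). Each comparison was therefore repeated without these ewes, an alternative chosen after the data were seen, and the calls of members that changed are given beside the results.

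Levels are given as UMIs per 10000 UMIs of the summed cells of 1 type in 1 ewe, as the lowest, the median and the highest of the 6 ewes. They are compared between cells but not between genes, because the counts carry no common scale between transcripts. In such sums, fewer expressing cells and less RNA per cell cannot be told apart. Differences between cell types are log2 fold changes ± standard error of 1 type against the mean of the other 5, with the ewe as a block and n = 6 ewes. Their p-values come from the quasi-likelihood test of edgeR, adjusted by the Benjamini-Hochberg method over all 14227 genes tested, and a gene is called at an adjusted p under 0.05. The count filter ran over the sums of all types together, so that a gene high in other types was tested in each. Filtered alone, perivascular-like cells lost NOTCH4, stromal-like NOTCH4, JAG2 and HEY2, granulosa-like NOTCH3, and immune-like NOTCH3, HEY1 and HEY2. Lower calls of these members restate that other types are higher.

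The receptors NOTCH1 and NOTCH4 were highest in endothelial-like, NOTCH2 in stromal-like and NOTCH3 in perivascular-like cells. NOTCH1 stood in endothelial-like cells at 1.14, 1.51 and 1.63. It was lower in immune-like cells (0.632, 0.911 and 1.26) and in perivascular-like cells (0.492, 0.828 and 1.20). Stromal-like, granulosa-like and theca-like cells lay far below, with medians of 0.118, 0.0894 and 0.0486. The endothelial-like level exceeded the immune-like one in 6 of 6 ewes, whereas immune-like and perivascular-like cells changed places between ewes (3 of 6).

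NOTCH2 had the reverse pattern, with its lowest level in endothelial-like cells (0.00688, 0.0231 and 0.0429). It was highest in stromal-like cells, at 0.601, 1.41 and 1.56. Perivascular-like (0.555, 0.973 and 1.10), granulosa-like (0.354, 0.930 and 1.04) and immune-like cells (0.391, 0.715 and 1.01) overlapped one another, and theca-like cells lay at 0.260, 0.562 and 0.814. Every sum of the other 5 types was above every endothelial-like sum. The unnamed cluster with smooth muscle and stromal genes, which entered no test, had a NOTCH2 level close to that of stromal-like cells (0.703, 1.51 and 1.76).

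NOTCH3, the receptor of vascular mural cells, stood at 2.31, 2.91 and 3.86 in perivascular-like cells. Stromal-like cells had 0.232, 0.307 and 0.598. No other main type exceeded 0.0416 in any ewe. The stromal-like level was 12.6% of the perivascular-like one, and the median perivascular marker stood at 12.4% in the same cells. In endothelial-like, theca-like, granulosa-like and immune-like cells the median marker was at 0.774% to 5.24%, and NOTCH3 at 0.225% to 0.887%. The part of perivascular transcripts in the stromal-like NOTCH3 level was not tested.

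NOTCH4, a receptor known mainly from vascular endothelium, stood at 0.160, 0.244 and 0.320 in endothelial-like cells. The next type, immune-like cells, had 0.0250, 0.0525 and 0.0674, and was below the endothelial-like level in 6 of 6 ewes. This was 20.6% of the endothelial-like level, against 4.43% for the median endothelial marker in immune-like cells. The other 4 types had 36 to 70 NOTCH4 UMIs each over all ewes.

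Among the ligands, JAG1 was read in all 6 types. Its level was highest in perivascular-like cells (1.12, 1.28 and 1.63) and only slightly lower in endothelial-like cells (0.815, 1.03 and 1.24), with the order kept in 5 of 6 ewes. Theca-like cells followed at 0.494, 0.676 and 0.875. Granulosa-like cells varied most between ewes, from 0.278 in LLS1 to 0.971 in HLS1 with a median of 0.674. Stromal-like and immune-like cells had medians of 0.490 and 0.355.

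JAG2 and DLL4 were highest in endothelial-like cells. In the ewe with the highest share, JAG2 reached 48.8% of its endothelial-like level in perivascular-like cells and 34.9% in immune-like cells. JAG2 stood at 0.215, 0.364 and 0.406 in endothelial-like cells, and no other main type exceeded 0.105 in any ewe. DLL4, the Delta-like ligand of sprouting vessels, stood at 0.588, 1.02 and 1.29 in endothelial-like cells, whereas perivascular-like cells, the next type, had 0.0424, 0.0686 and 0.188. In perivascular-like cells DLL4 was at 9.44% of its endothelial-like level, with the median endothelial marker at 5.23%. These cells include an unnamed cluster (163 cells) with VWF, MMRN2 and SELP among its leading genes. In HLS1 that cluster held 19 DLL4 UMIs in 79 cells (0.6275), whereas pericyte-like and smooth muscle-like cells had means of 0.0701 and 0.0837 over the ewes. It also held 22 JAG2 UMIs (0.727) and 71 NOTCH1 UMIs (2.34) in HLS1. Its part in the perivascular-like levels was not tested. In granulosa-like cells DLL4 was at 3.53% of its endothelial-like level, with the median endothelial marker at 2.35%.

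The 3 target genes were all highest in perivascular-like cells. HEY1 had 0.331, 0.356 and 0.578 there, against 0.0700, 0.105 and 0.159 in endothelial-like and 0.0567, 0.0710 and 0.0899 in stromal-like cells, an order that held in 6 of 6 ewes at both steps. HEY1 in endothelial-like cells was at 29.0% of the perivascular-like level, where the median perivascular marker was at 0.774%.

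HEY2 had 0.122, 0.231 and 0.579 in perivascular-like cells and 0.0382, 0.161 and 0.196 in granulosa-like cells. These types overlapped, with perivascular-like cells higher in 5 of 6 ewes. In granulosa-like cells HEY2 was at 62.3% of the perivascular-like level, whereas the median perivascular marker was at 5.24%. HEY2 was nearly absent from theca-like cells, where 5 UMIs were counted in all and 3 ewes had none, which allows at most 0.00461 to 0.0293 per 10000 UMIs in those ewes for 3 counts.

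HES1, a target that many other signals also induce, was read in every type. It stood at 2.38, 2.97 and 6.77 in perivascular-like, 1.42, 2.36 and 3.89 in endothelial-like and 1.23, 1.68 and 2.28 in stromal-like cells. Granulosa-like (median 0.781), immune-like (0.649) and theca-like cells (0.392) were lower. The 6.77 belonged to HLS3, whose summed level of 12 immediate-early genes, transcripts that rise quickly during tissue dissociation, was also the highest of the 6 perivascular-like sums (254, against 130 to 209.6 in the other ewes). In the other ewes the order of these genes and of HES1 differed. HLS2 had 209.6 with HES1 at 2.96, LLS1 177 with 2.38 and LLS2 160 with 4.11. HLS1 and LLS3 had 130 and 133 with HES1 at 2.93 and 2.97. The part of dissociation in the HES1 level was not tested.

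Neighbours in these orders were compared within ewes by an exact two-sided sign-flip test. Of 50 neighbouring pairs, 22 kept their order in all 6 ewes. With 6 ewes the smallest p that this test can give is 0.03125, and none of the 50 fell below 0.05 after adjustment (smallest 0.0710).

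**Figure D1:**
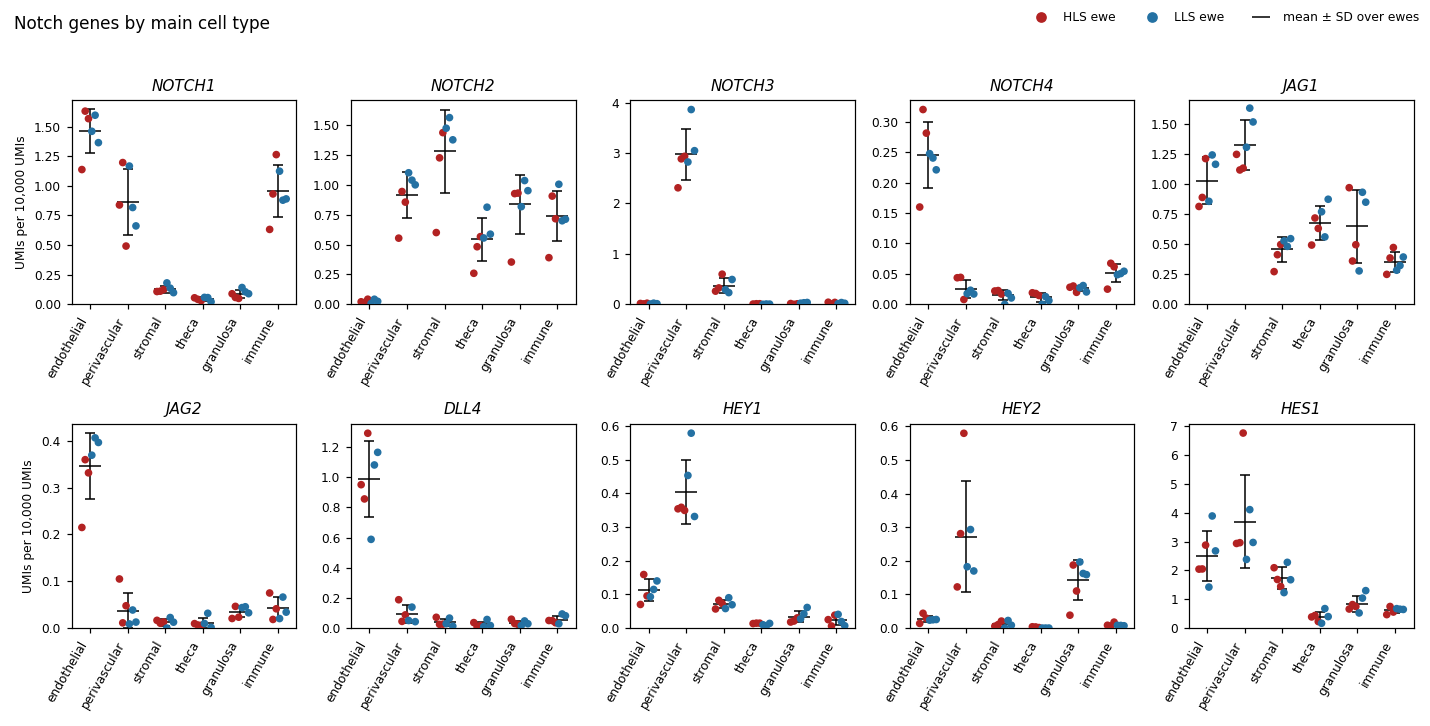
Level of each of the 10 Notch genes (y axis, UMIs per 10000 UMIs) in the summed cells of the 6 main cell types (x axis), with 1 point per ewe coloured by group and black bars for the mean ± SD over the ewes. Endothelial-like cells carry the highest NOTCH1, NOTCH4, JAG2 and DLL4 and the lowest NOTCH2, whereas perivascular-like cells carry the highest NOTCH3, HEY1, HEY2 and HES1.

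The share of cells with at least 1 UMI depends on depth. To compare shares at 1 depth, each cell was also thinned at random to 2000 UMIs, leaving out shallower cells. After thinning, the share was highest in the same type as the level for all 10 members, but before it for 7. JAG1 was detected in 47.7% of endothelial-like and 47.3% of theca-like cells before thinning, above the 37.3% of the shallower perivascular-like cells, and in 16.6%, 12.7% and 21.2% after it. HES1 was detected in 66.4% of endothelial-like and 62.0% of perivascular-like cells before and in 33.6% and 45.9% after thinning. For NOTCH2, theca-like cells (41.7%) stood above perivascular-like cells (29.6%) before thinning and below them after it (9.37% and 15.02%). NOTCH3 was detected in 54.2% of perivascular-like cells before and 38.8% after thinning, and in 1.35% and 0.390% of endothelial-like cells. The NOTCH3 level in endothelial-like cells was 0.496% of the perivascular-like one, below the 0.774% of the median perivascular marker. Free RNA in the droplets can give low shares of this kind, and its part here was not tested. NOTCH1 was detected in 60.2% of endothelial-like cells (23.5% thinned, median depth 8482 UMIs) and 24.8% of immune-like cells (14.2% thinned, median depth 3112.5). DLL4 fell from 44.3% to 16.01% of endothelial-like cells and from 3.16% to 0.375% of granulosa-like cells. HEY2 was detected in 9.81% of granulosa-like and 9.77% of perivascular-like cells before thinning, but in 3.69% and 5.97% after it.

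Against the mean of the other 5 types, endothelial-like cells had 7 members called higher and 2 called lower. Over all genes tested, 34.6% were called higher and 32.8% lower in the same comparison. The median log2 fold change was 1.21 over the members and -0.01 over all genes. DLL4 (4.70 ± 0.14, adjusted p = 2.83e-23 by edgeR) and JAG2 (4.05 ± 0.21, 1.32e-17) differed most upwards, followed by NOTCH4 (3.39 ± 0.14) and NOTCH1 (2.87 ± 0.12). HES1 (1.24 ± 0.14), HEY1 (1.17 ± 0.16) and JAG1 (0.75 ± 0.14) were called with smaller differences. NOTCH2 was lower by the largest margin of any member in this comparison, at -5.05 ± 0.23 (adjusted p = 1.10e-18), and NOTCH3 was lower at -2.54 ± 0.28. HEY2 was not called (0.22 ± 0.23, adjusted p = 0.408).

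Perivascular-like cells had 7 members called higher and 1 lower, with 25.2% and 24.3% of all genes called in these directions. The median over members was 1.41, against -0.05 over all genes. NOTCH3 led with 6.61 ± 0.17 (adjusted p = 8.83e-25 by edgeR), and the targets HEY2 (3.89 ± 0.22), HEY1 (3.21 ± 0.16) and HES1 (1.76 ± 0.14) were all called. NOTCH1 (1.75 ± 0.14), NOTCH2 (1.07 ± 0.16) and JAG1 (1.01 ± 0.15) were higher as well. NOTCH4, with 36 UMIs in these cells, was called lower at -0.65 ± 0.27 (adjusted p = 0.0433), a call lost without HLS2 (0.0532), HLS3 (0.141), LLS1 (0.108), LLS2 (0.0966), LLS3 (0.0875) or both HLS2 and LLS1 (0.115). DLL4 (0.17 ± 0.23) and JAG2 (-0.21 ± 0.39) were not called, JAG2 being called lower without HLS1 (adjusted p = 0.0467). The JAG2 UMIs of HLS1 include 22 from the unnamed cluster with VWF among its leading genes.

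Stromal-like cells had 3 members called higher, where 24.8% of all genes were, and 6 called lower, where 23.0% were. NOTCH3 was higher at 3.02 ± 0.20, and its level beside that of perivascular markers is given above. NOTCH2 was higher at 1.69 ± 0.15 and HES1 at 0.57 ± 0.15. JAG2 (-1.68 ± 0.36), NOTCH1 (-1.50 ± 0.17), NOTCH4 (-1.37 ± 0.24), DLL4 (-1.23 ± 0.23), HEY2 (-1.20 ± 0.35) and JAG1 (-0.77 ± 0.17) were called lower, of which HEY2 was not called without HLS2 (adjusted p = 0.0513) or without HLS2 and LLS1 (0.0707). HEY1 was not called (0.34 ± 0.18).

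Theca-like cells, the steroid-producing cells of the follicle wall, had no member called higher and 8 called lower, where 29.5% and 33.0% of all genes were called. The median over the members was -2.22, against -0.06 over all genes. Of the lower members, NOTCH3, NOTCH4, JAG2, DLL4, HEY1 and HEY2 fell below the count filter in theca-like cells alone. They were tested because other types pass it, so that the count and the median restate that other types are higher. The lower members ran from HEY2 (-4.33 ± 0.48, on 5 UMIs) and NOTCH3 (-3.47 ± 0.40, on 22 UMIs) to NOTCH4 (-1.62 ± 0.26). NOTCH2 (0.33 ± 0.16, adjusted p = 0.0761, but 0.0304 without LLS1 and 0.00426 without HLS2 and LLS1) and JAG1 (0.08 ± 0.16, 0.665) were not called.

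In granulosa-like cells, which surround and nourish the oocyte, 2 members were called higher and 6 lower (27.5% and 28.1% of all genes). The higher ones were HEY2 (2.82 ± 0.23, adjusted p = 3.57e-12) and NOTCH2 (0.86 ± 0.15, 1.88e-05). NOTCH3 (-2.38 ± 0.35) and NOTCH1 (-2.26 ± 0.19) had the largest differences downwards, and DLL4, HEY1, HES1 and NOTCH4 were lower by 0.71 to 1.45 on the log2 scale. The NOTCH4 call was lost without HLS3 (adjusted p = 0.0525). JAG1 (-0.24 ± 0.16) and JAG2 (-0.21 ± 0.33) were not called, JAG1 being called lower without HLS1 (adjusted p = 0.0128).

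Immune-like cells had 3 members called higher, NOTCH1 (2.38 ± 0.13), NOTCH2 (1.10 ± 0.16) and NOTCH4 (0.96 ± 0.23), and 5 called lower, with 33.5% and 34.7% of all genes called. The count called higher was near the share of all genes. For NOTCH2, the mean of the other 5 types includes the far lower endothelial-like level. The same holds for the NOTCH2 calls in perivascular-like, stromal-like and granulosa-like cells. The median NOTCH2 level of immune-like cells was below the medians of those 3 types. The part of the low endothelial-like level in these calls was not tested. The lower members were HEY2 (-1.40 ± 0.45), NOTCH3 (-1.23 ± 0.39), HEY1 (-1.17 ± 0.27), JAG1 (-0.85 ± 0.18) and HES1 (-0.84 ± 0.18), and the HEY2 call was lost without HLS2 and LLS1 (adjusted p = 0.0739). NOTCH1 in immune-like cells stood at 65.1% of its endothelial-like level, with the median endothelial marker at 4.43%.

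The endothelial-like cells were clustered again and named from markers that held none of the members. Comparisons between the 5 named subtypes covered 11794 genes and 9 members, since NOTCH3 had too few UMIs to be tested. Arterial-like endothelium (1513 cells), named from GJA5, GJA4, SOX17, BMX and others, had 6 members called higher, against 14.9% of all genes, and 1 called lower, against 10.2%. The median log2 fold change over members was 1.32, against -0.01 over all genes. The subtype joined clusters of 838 and 675 cells, with arterial scores of 1.87 and 1.05. The smaller one scored 0.588 for capillary, and 273 and 264 of its cells came from HLS2 and LLS1.

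HEY1 in arterial-like endothelium was at 0.355, 0.573 and 0.783, while venous-like endothelium had 0.0146, 0.0370 and 0.0437, so that the lowest arterial-like sum was above every venous-like one. The arterial-like difference from the other subtypes was 3.16 ± 0.16 (adjusted p = 1.87e-15 by edgeR). HEY2 followed with 0.0426, 0.153 and 0.162 in arterial-like endothelium (2.88 ± 0.27, adjusted p = 7.62e-10). Both HEY genes encode repressors known from arterial specification.

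JAG2 stood at 0.648, 1.39 and 1.58 in arterial-like endothelium, and the highest sum of any other endothelial cluster was 0.422 (2.69 ± 0.12, adjusted p = 8.90e-17). JAG1 was at 1.38, 2.40 and 2.96 there (1.32 ± 0.10). NOTCH4 was at 0.312, 0.4658 and 0.599 (1.52 ± 0.12), and DLL4 at 0.987, 1.404 and 1.91 (1.06 ± 0.11). All 3 ligands and the receptor NOTCH4 were thus higher in arterial-like endothelium than in the mean of the other named subtypes. NOTCH1 was not called (-0.01 ± 0.10), and HES1 was called lower by a small margin (-0.32 ± 0.12, adjusted p = 0.0434), a call lost without HLS1, HLS2, HLS3 or LLS1 (adjusted p = 0.0776 to 0.136).

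Venous-like endothelium (3254 cells) had 1 member called higher and 4 lower, with 26.0% and 24.1% of all genes called. HEY1 (-1.75 ± 0.24), HEY2 (-1.40 ± 0.38), NOTCH4 (-0.49 ± 0.14) and JAG2 (-0.35 ± 0.14) were lower, and JAG1 was slightly higher (0.28 ± 0.10). Without LLS1, 3 members were called in place of 5. The JAG1 call was lost without HLS2, HLS3 or LLS1 (adjusted p = 0.0635 to 0.0648 by edgeR), and the JAG2 call without HLS1, LLS1, LLS2 or LLS3 (adjusted p = 0.0702 to 0.161). Without both HLS2 and LLS1, 2 members were called, HEY1 (-1.80) and NOTCH4, JAG1 (-0.00481, adjusted p = 0.982) and JAG2 (adjusted p = 0.0555) being lost. HEY2 had too few UMIs to be tested between endothelial subtypes without these ewes. DLL4 was not called (0.27 ± 0.12, adjusted p = 0.0552), though it was higher and called without HLS1 (0.0256), HLS3 (0.0439) or LLS3 (0.04996), and its sign turned when cells were filtered or clustered differently (-0.34 to -1.43).

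Capillary-like endothelium (4113 cells) came almost wholly from HLS2 (1791 cells) and LLS1 (2285 cells), with 3 to 15 cells in each other ewe, and the comparison used the 4 ewes with at least 10 such cells. It had 2 members called higher, HEY2 (1.10 ± 0.38) and NOTCH4 (0.73 ± 0.16), where 17.7% of all genes were, and 2 lower, JAG1 (-1.07 ± 0.16) and HES1 (-0.61 ± 0.16), where 18.7% were. HEY2 was not called without HLS1 (adjusted p = 0.0655 by edgeR), LLS1 (0.2995) or LLS2 (0.0608), nor NOTCH4 without LLS1 (0.0892), which left 2 members called, and with called doublets kept HEY2 (-0.79) and NOTCH4 (-0.11) turned sign. Without HLS2 and LLS1 too few ewes held enough of these cells for the comparison, so that the other subtypes were then compared without them.

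Tip-like endothelium (1102 cells) was named from a list of 8 genes of sprouting vessels, of which only APLN was among its leading genes. ESM1 of the same list was among the leading genes of capillary-like endothelium. The marker score of the tip-like cluster was 0.712 for tip and 0.663 for cycling cells, so that the name is weak. It had 1 member called higher, JAG1 (0.76 ± 0.10), and 2 called lower, HES1 (-0.75 ± 0.12) and NOTCH1 (-0.54 ± 0.11), with 14.5% and 6.28% of all genes called. DLL4, the ligand known from tip cells, was not called in it (-0.28 ± 0.13, adjusted p = 0.110), though it was called lower without HLS2 and LLS1 (-0.42, adjusted p = 0.0180). HEY2 was not called either (-1.22 ± 0.45, adjusted p = 0.0511), except without HLS2 (0.0267) or LLS1 (0.0449). The steroidogenic gene CYP11A1 was among the leading genes of this cluster. The differences of both ligands and of NOTCH1 depended on how the cluster was drawn. With sub-clusters drawn on genes variable among endothelial-like cells, DLL4 stood at 0.97 and JAG1 at -0.30. The NOTCH1 call was lost with these sub-clusters (-0.0053, adjusted p = 0.986 by edgeR) and with those centred per ewe (-0.0267, 0.922). It was also lost with a mitochondrial limit of 20% (-0.209, 0.129).

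The highest DLL4 levels lay in an unnamed endothelial cluster led by ABCA1, PPP1R1B and LAMA2 (1203 cells), at 1.26, 1.74 and 2.15. Its range overlapped that of arterial-like endothelium.

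Lymphatic-like endothelium (799 cells), led by CCL21 and MMRN1, had 3 members called higher (22.0% of all genes) and 5 lower (24.9%). HES1 was at 3.19, 5.38 and 12.4 (1.53 ± 0.11, adjusted p = 7.06e-13), with the highest value in LLS2. NOTCH1 was at 1.92, 2.27 and 2.97 (0.75 ± 0.10), and NOTCH2 was also called higher (1.35 ± 0.43) on 27 UMIs, a call lost without HLS2 and LLS1 (adjusted p = 0.0954). JAG2 (-2.14 ± 0.22), NOTCH4 (-2.04 ± 0.21), JAG1 (-1.29 ± 0.13), HEY1 (-1.27 ± 0.33) and DLL4 (-1.15 ± 0.15) were lower, and HEY2 (-1.35 ± 0.57, adjusted p = 0.0521) only without HLS3 (0.0488) or LLS3 (0.0260). The 3 ligands among the members were thus lower in the subtype where HES1 was highest. Of 4 further ligand genes tested there, however, 2 were called higher and 1 lower.

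**Figure D2:**
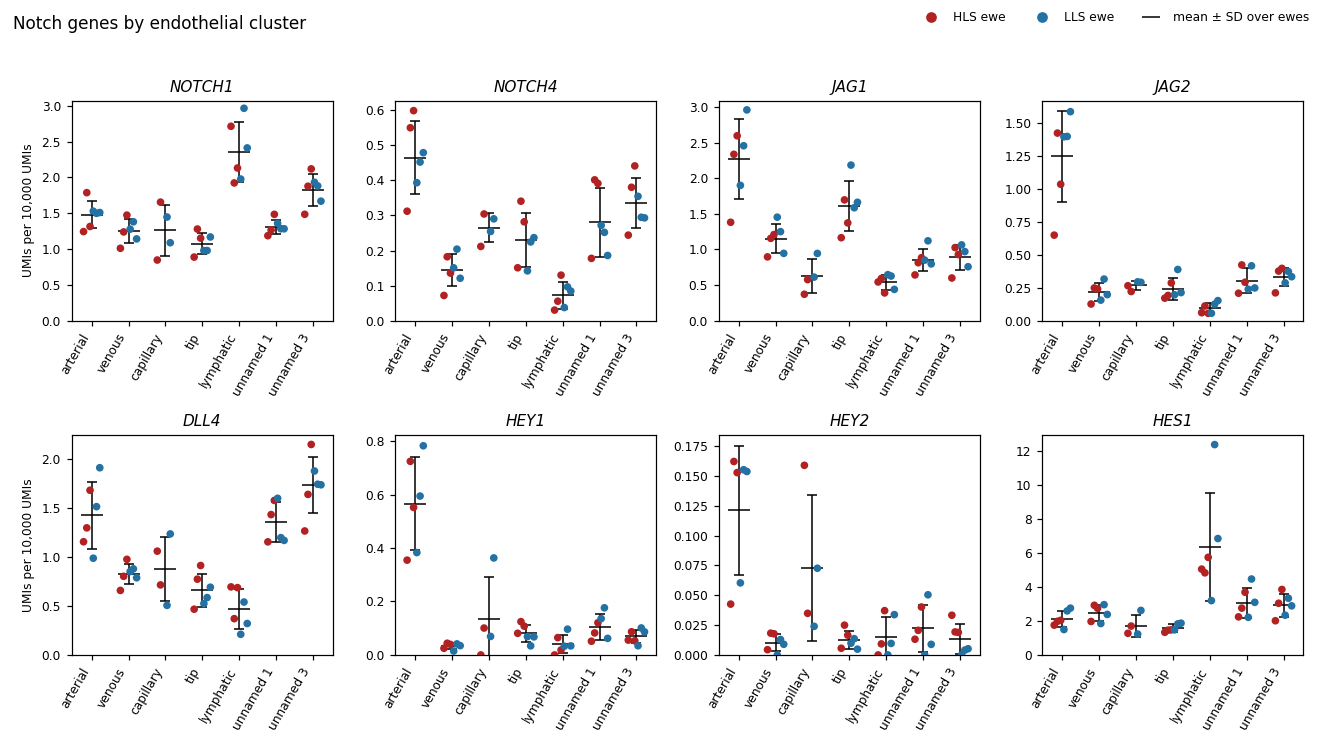
Level of 8 Notch genes (y axis, UMIs per 10000 UMIs) in the named and unnamed clusters of endothelial-like cells (x axis), with 1 point per ewe with at least 10 cells, coloured by group, and black bars for the mean ± SD. Arterial-like endothelium stands above every other cluster for JAG2 and has the highest mean of HEY1 and HEY2, and lymphatic-like endothelium has the highest means of HES1 and NOTCH1 and the lowest of JAG2 and NOTCH4.

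Perivascular-like cells were divided into smooth muscle-like (1165 cells, median 2443 UMIs) and pericyte-like cells (1275 cells, median 4884 UMIs). All 7 members tested of 7733 genes were called between them, 3 higher in smooth muscle-like cells (18.2% of all genes) and 4 lower (17.2%). The 2 HEY genes went in opposite directions. HEY2 stood at 0.315, 0.783 and 0.999 in smooth muscle-like and at 0.0447, 0.0844 and 0.134 in pericyte-like cells, with no overlap (3.24 ± 0.24, adjusted p = 8.54e-08 by edgeR). HEY1 stood at 0.142, 0.168 and 0.276 in smooth muscle-like and at 0.354, 0.505 and 0.748 in pericyte-like cells, again with no overlap (-1.43 ± 0.24, adjusted p = 0.000239).

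HES1 went with HEY2, at 4.30, 5.57 and 9.11 in smooth muscle-like against 1.86, 2.38 and 3.24 in pericyte-like cells (1.32 ± 0.12). The receptors went with HEY1. NOTCH1 stood at 0.173, 0.233 and 0.325 in smooth muscle-like against 0.748, 0.914 and 1.64 in pericyte-like cells (-2.12 ± 0.22), and NOTCH3 at 1.73, 2.05 and 3.00 against 2.98, 3.44 and 4.38 (-0.65 ± 0.11). NOTCH2 was lower by a smaller margin (-0.49 ± 0.13) and JAG1 was higher (0.52 ± 0.13), with overlapping ranges for both. Without HLS2 and LLS1 the calls of HEY2, HEY1, HES1, NOTCH1 and NOTCH3 stood (HEY2 2.90, HEY1 -1.30), and those of NOTCH2 (adjusted p = 0.128 by edgeR) and JAG1 (0.0822) were lost.

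The share of smooth muscle-like cells among perivascular-like cells ran from 24.8% in HLS1 and 26.8% in LLS2 to 81.1% in HLS3, the ewe with the highest HEY2 and HES1 levels of the whole perivascular-like class. The part of this share in those levels was not tested.

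Granulosa-like cells held enough UMIs to test 4 members, NOTCH2, JAG1, HEY2 and HES1, over 7288 genes between 3 of the named clusters. A cycling cluster (199 cells) and unnamed clusters of 710 and 408 cells were left out of these tests. JAG1 separated them most. In mural-like cells (858 cells), the layer lining the follicle wall, JAG1 stood at 0.504, 1.43 and 2.26, whereas cumulus-like cells (395 cells) had 0.0453, 0.102 and 0.177. The cumulus-like cluster was named from IHH, INHBB, IGFBP2, AMH and INHA. Its leading genes held AMH, IHH and INHA but also TNNI3, a marker of early follicles, and IGFBP2 was among those of an unnamed cluster. Its marker score was 1.13 for cumulus and 0.51 for early cells. Mural-like cells had 1 member called higher (24.0% of all genes) and 3 lower (22.5%): JAG1 was higher by 2.91 ± 0.19 (adjusted p = 1.28e-11 by edgeR), and HEY2 (-2.24 ± 0.36), HES1 (-1.58 ± 0.19) and NOTCH2 (-0.68 ± 0.15) were lower. The mural-like clusters were led by GCG, OXT, PLIN2 and MMP9 among others. Markers of other types were also higher there: the 8 stromal markers, all detected, summed to 14.03 on average (10.5 to 25.1), against 1.81 (1.13 to 2.43) in cumulus-like cells, and the 6 theca markers, all detected, to 3.24 (2.33 to 4.79) against 0.938 (0.175 to 2.90). The median JAG1 level was 1.43 in mural-like, 0.490 in stromal-like and 0.676 in theca-like cells. The part of stromal and theca transcripts in the JAG1, HEY2, HES1 and NOTCH2 values of mural-like cells was not tested. OXT, a leading gene of the mural-like clusters, is also on the list of luteal markers. Among the clusters of all cells, 856 cells led by GCG, TIMP1, SERPINA1 and PLIN2 scored 1.01 for granulosa and 0.735 for luteal markers. Their numbers per ewe were nearly those of the mural-like cells. The part of luteal-type cells in the mural-like values was not tested.

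Cumulus-like cells had no member called higher (22.5% of all genes) and 1 called lower (23.4%), JAG1 at -2.41 ± 0.27. Without LLS3, 2 members were called, NOTCH2 (0.35 ± 0.15) being added. HEY2 (0.08 ± 0.35) and HES1 (0.35 ± 0.19) were not called.

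A granulosa cluster led by CYTL1, FATE1, RGS5 and WNT6 (392 cells, median 3819 UMIs) matched the fixed markers WT1, TNNI3 and WNT6 of early follicles. Other markers left that name uncertain. The 10 granulosa markers summed to 9.57 on average in it (5.91 to 15.02), against 36.1 in mural-like and 90.8 in cumulus-like cells, and the 9 perivascular markers to 10.5 (4.99 to 20.8), against 3.32 and 3.63. RGS5, a leading gene of this cluster, is among those 9 markers. The paper describes early granulosa cells of the human ovary as low in FST, which is among the 10 granulosa markers. These sums therefore cannot decide the name. HEY2 stood there at 0.217, 0.326 and 0.978 and HES1 at 0.5678, 2.25 and 3.59. It had 2 members called higher (22.5% of all genes), HEY2 (2.16 ± 0.36) and HES1 (1.23 ± 0.19), and none lower (21.8%). Without HLS3, 4 members were called, NOTCH2 (0.33 ± 0.16) among them. JAG1 was not called (-0.49 ± 0.28), except lower without LLS1 (adjusted p = 0.0248) or without HLS2 and LLS1 (0.00602). The perivascular-like cells are themselves high in HEY2 and HES1, and the part of perivascular transcripts in these calls was not tested. HEY2 was also present in the cumulus-like cells (0.0726, 0.162 and 0.317), where perivascular markers were lower. In the cycling granulosa-like cells HEY2 stood at 0.221, 0.313 and 0.357 over 5 ewes, and the perivascular markers summed to 2.42 on average (1.39 to 3.52).

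**Figure D3:**
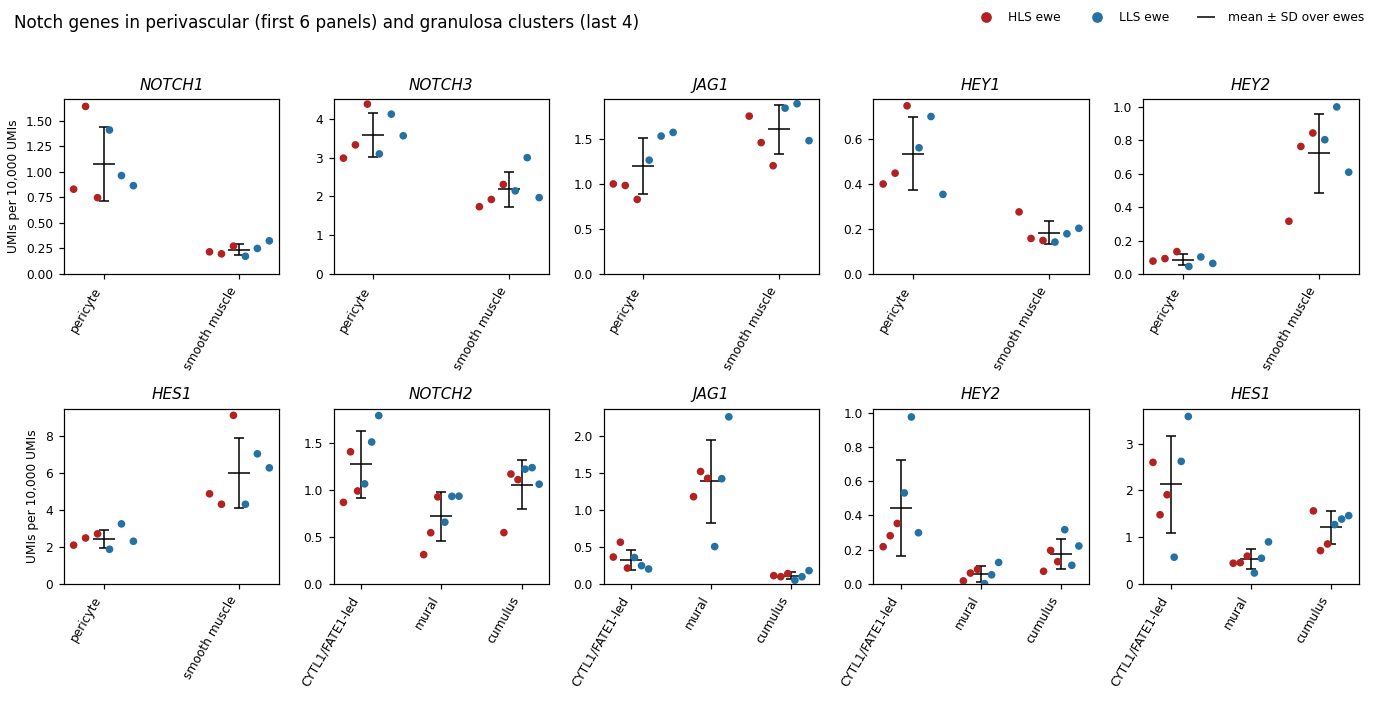
Level of Notch genes (y axis, UMIs per 10000 UMIs) in pericyte-like and smooth muscle-like perivascular cells and in the granulosa-like clusters, with 1 point per ewe coloured by group and black bars for the mean ± SD. HEY1 and HEY2 go opposite ways between pericyte-like and smooth muscle-like cells, and JAG1 is high in mural-like cells, where HEY2 and HES1 are low.

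Beyond the 10 members, 63 of 66 other listed genes of the pathway were in the files: further ligands, targets, sugar transferases, cleavage enzymes, nuclear cofactors and trafficking genes. In the comparison of main types 57 of them were tested. Endothelial-like cells had 35 called higher and 11 lower, where 34.6% and 32.8% of all genes were. Higher were 7 of 9 cleavage, 4 of 6 sugar transferase, 4 of 5 ligand, 9 of 17 nuclear, 3 of 6 target and 8 of 14 trafficking genes. Their extremes were EGFL7 (4.99 ± 0.15), a secreted endothelial protein that also served as a marker of the type, HES2 (4.78 ± 0.22), a HES-family repressor, and DTX4 (-4.23 ± 0.37), a Deltex ubiquitin ligase.

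Perivascular-like cells had 19 called higher, where 25.2% of all genes were, and 13 lower, near the 24.3% of all genes. Of 6 further targets 5 were higher and none lower, and of 9 cleavage genes 2 were higher and 5 lower. HEYL, the third HEY-family repressor, differed by 4.59 ± 0.16 (adjusted p = 9.25e-22 by edgeR), beside the ubiquitin ligase NEURL1B (3.85 ± 0.29) and the cyclin CCND1 (3.84 ± 0.18). All 3 HEY genes were thus called higher in perivascular-like cells.

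Stromal-like cells had 17 called higher and 17 lower, not far from the 24.8% and 23.0% of all genes. The non-canonical ligand genes MFAP5 (6.64 ± 0.22), which encodes a microfibril protein, and DLK1 (5.79 ± 0.48), a Delta-like protein, led upwards with DTX4 (2.97 ± 0.22). Theca-like cells had 8 higher and 29 lower (29.5% and 33.0% of all genes), with CCND1 (-3.74 ± 0.32), MFAP5 (-3.72 ± 0.63) and HES4 (-3.45 ± 0.54) at the extreme. Granulosa-like cells had 9 higher and 25 lower (27.5% and 28.1% of all genes), and all 5 further ligands were lower there, DLK1 by the most (-4.95 ± 1.82, adjusted p = 0.0225), then CCND1 (-3.34 ± 0.30) and MFAP5 (-2.48 ± 0.55). Immune-like cells had 21 higher and 17 lower, close to the 33.5% and 34.7% of all genes, with 7 of 9 cleavage genes higher as in endothelial-like cells. LFNG (3.08 ± 0.19), the Fringe enzyme that adds sugars to Notch, stood at the top there and HEYL (-3.03 ± 0.36) and DTX1 (-3.02 ± 0.54) at the bottom.

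Among endothelial subtypes 53 of these genes were tested. Arterial-like endothelium had 16 higher, where 14.9% of all genes were, and 6 lower, where 10.2% were, led by MFAP5 (5.08 ± 0.31) and HEYL (2.82 ± 0.22), with DTX1 lower (-1.46 ± 0.24). DTX1 ran the other way in lymphatic-like endothelium (4.64 ± 0.15, adjusted p = 7.75e-21 by edgeR), where 16 were higher and 16 lower (22.0% and 24.9% of all genes). NUMBL (2.75 ± 0.20), a NUMB-like adaptor, and the corepressor TLE1 (1.78 ± 0.18) followed there. Venous-like endothelium had 15 higher and 14 lower, near the 26.0% and 24.1% of all genes, with MFAP5 (-3.03 ± 0.64), DTX1 (-2.29 ± 0.23) and CCND1 (-2.08 ± 0.23) lowest. Capillary-like endothelium had 9 and 14 (17.7% and 18.7% of all genes), with MFAP5 (-3.58 ± 0.64) and TLE1 (-3.55 ± 0.31) lower and CCND1 (1.61 ± 0.25) higher. Tip-like endothelium had 7 and 5, near the 14.5% and 6.28% of all genes, with DTX1 (-1.11 ± 0.24) and the gamma-secretase gene APH1B (-0.98 ± 0.18) lower and the ligand gene DLL1 (0.71 ± 0.13) higher.

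Smooth muscle-like cells had 2 of 41 higher and 10 lower than pericyte-like cells (18.2% and 17.2% of all genes), DTX1 (-3.58 ± 0.34), CCND1 (-2.84 ± 0.28) and LFNG (-1.10 ± 0.35) at the extreme. Of 35 tested in granulosa-like clusters, mural-like cells had 10 higher and 3 lower (24.0% and 22.5% of all genes), with DTX2 (2.30 ± 0.20) and the proteases ADAM10 (0.85 ± 0.14) and FURIN (0.85 ± 0.18), which cut Notch at the cell surface and during its maturation, among the higher. Cumulus-like cells had 4 higher and 12 lower (22.5% and 23.4%), with the coactivator MAML2 (-1.28 ± 0.17), DTX2 (-1.27 ± 0.28) and NUMB (-1.26 ± 0.23), an inhibitor of Notch, lowest. The cluster led by CYTL1 and FATE1 had 7 and 7, near the 22.5% and 21.8% of all genes, with TLE1 (1.42 ± 0.24), KAT2B (1.38 ± 0.33) and DTX2 (-1.03 ± 0.30) at its extremes.

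Ligand and target transcripts were also read in the same endothelial-like cells, each thinned to 3000 UMIs. HEY1 was detected in 9.45% of cells with a JAG2 UMI and 2.54% of cells without one, a mean difference of 6.92 percentage points (3.74 to 11.3 over ewes) that was positive in 6 of 6 ewes. For DLL4 the shares were 5.25% and 2.59%, and for JAG1 4.91% and 2.64%, both also higher in 6 of 6 ewes. HEY2 went the same way with JAG1, at 1.32% against 0.498% (6 of 6 ewes). HES1 was detected in 45.4% of cells with and 42.1% without a DLL4 UMI (6 of 6 ewes), but showed no such order with JAG1 (2 of 6) or JAG2 (4 of 6).

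Each pair with 6 of 6 ewes reached the smallest exact sign-flip p of 0.03125, and the adjusted value over the 9 pairs was 0.0563, so that none passed 0.05. Arterial-like endothelium was high in JAG2 and HEY1 alike. Within arterial-like cells, HEY1 was detected in 22.4% of cells with JAG2 and 13.6% without it, and in 20.8% with DLL4 and 14.4% without it. In venous-like cells the shares with and without JAG2 were 0.532% and 0.834%. The values within subtypes pool cells over ewes and carry no test.

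**Figure D4:**
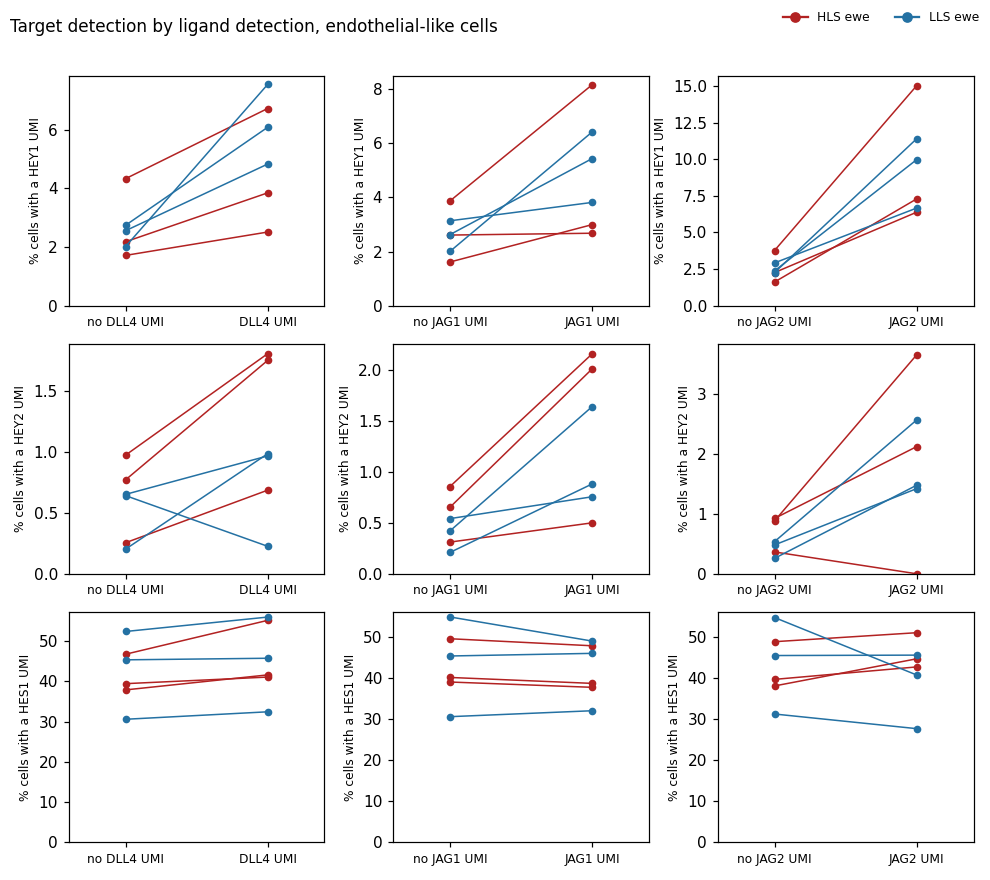
Share of endothelial-like cells, thinned to 3000 UMIs, with a UMI of HEY1, HEY2 or HES1 (y axis, percent) among cells without and with a UMI of DLL4, JAG1 or JAG2 (x axis), with 1 line per ewe coloured by group. The HEY1 share is higher with than without each ligand in all 6 ewes, whereas the HES1 lines have no common direction for JAG1 or JAG2.

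The study was designed to compare ewes of high and low litter size, and each type was therefore also compared between the 3 HLS and 3 LLS ewes. No member was called between the groups in any of the 6 types. edgeR called 0.0% of all genes in each of endothelial-like, perivascular-like, stromal-like, theca-like, granulosa-like and immune-like cells, with 202 to 693 genes per type at an unadjusted p under 0.05 and no member among them. DESeq2 called 0 to 18 genes per type, again with no member. In the same design, 19% of genes changed by a fold of 2 and 86% of those changed by a fold of 4 were recovered in data simulated for endothelial-like cells, so that differences of the smaller size could go undetected. The simulation gave all genes the same dispersion, changed only well-counted genes and held no likeness between ewes. Recovery for the members themselves can therefore differ.

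The 44 member comparisons had log2 fold changes (HLS over LLS) from -0.73 ± 0.42 for HEY1 in granulosa-like cells to 0.69 ± 0.63 for DLL4 in perivascular-like cells. The perivascular-like sums include the unnamed cluster with VWF among its leading genes, of which HLS1 held 79 of 163 cells. Its part in the DLL4 difference was not tested. In perivascular-like cells NOTCH3 stood at 2.31, 2.88 and 2.93 in HLS1 to HLS3 and at 2.82, 3.86 and 3.05 in LLS1 to LLS3, overlapping ranges (-0.19 ± 0.20, adjusted p = 0.982 by edgeR). DLL4 in endothelial-like cells stood at 0.951, 0.856 and 1.29 in the HLS and 0.588, 1.08 and 1.16 in the LLS ewes, also overlapping (0.22 ± 0.29). In granulosa-like cells HEY2 stood at 0.0382, 0.187 and 0.110 in the HLS and 0.196, 0.162 and 0.159 in the LLS ewes, where only HLS2 lay within the LLS range (-0.45 ± 0.44).

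The groups did not overlap in 4 of 38 sets of member and type with at least 100 UMIs, all lower in HLS. They were JAG2 in endothelial-like cells (1 of 10 members, against 4.34% of all genes), NOTCH2 and JAG1 in perivascular-like cells (2 of 8, against 9.42%) and NOTCH1 in granulosa-like cells (1 of 5, against 15.6%). No member was without overlap among 7 in stromal-like, 4 in theca-like and 4 in immune-like cells, where 10.9%, 10.1% and 9.63% of all genes were. These levels were not scaled by the TMM factors of the edgeR tests. Without TMM factors, the typical gene also leaned lower in HLS. The median log2 fold change of all genes then ran from -0.176 (granulosa-like) to -0.0687 (immune-like) over the types. With the factors it ran from -0.00444 to 0.0124. The part of this shift in the common direction of the 4 sets was not tested.

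JAG2 in endothelial-like cells stood at 0.215, 0.360 and 0.331 in HLS1 to HLS3 and at 0.369, 0.406 and 0.396 in LLS1 to LLS3 (-0.31 ± 0.18, adjusted p = 0.99996 by edgeR). HLS1 was farthest from the rest, and HLS2 lay just below LLS1. NOTCH2 in perivascular-like cells stood at 0.555, 0.945 and 0.857 against 1.10, 1.04 and 1.001 (-0.36 ± 0.20, adjusted p = 0.982), with HLS1 again lowest. JAG1 in the same cells stood at 1.25, 1.12 and 1.13 against 1.31, 1.63 and 1.52 (-0.27 ± 0.19). NOTCH1 in granulosa-like cells stood at 0.0892, 0.0578 and 0.0499 against 0.142, 0.106 and 0.0896 (-0.57 ± 0.35), with HLS1 and LLS3 nearly equal.

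HLS1 had the lowest NOTCH2 level of the 6 ewes in perivascular-like, stromal-like, theca-like, granulosa-like and immune-like cells. A test of whether the HLS to LLS difference varied over the 6 types called 0 of 14227 genes by edgeR, with 351 at an unadjusted p under 0.05 and no member among them (smallest 0.0739, for NOTCH3). With 3 ewes a group, such differences could go undetected.

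**Figure D5:**
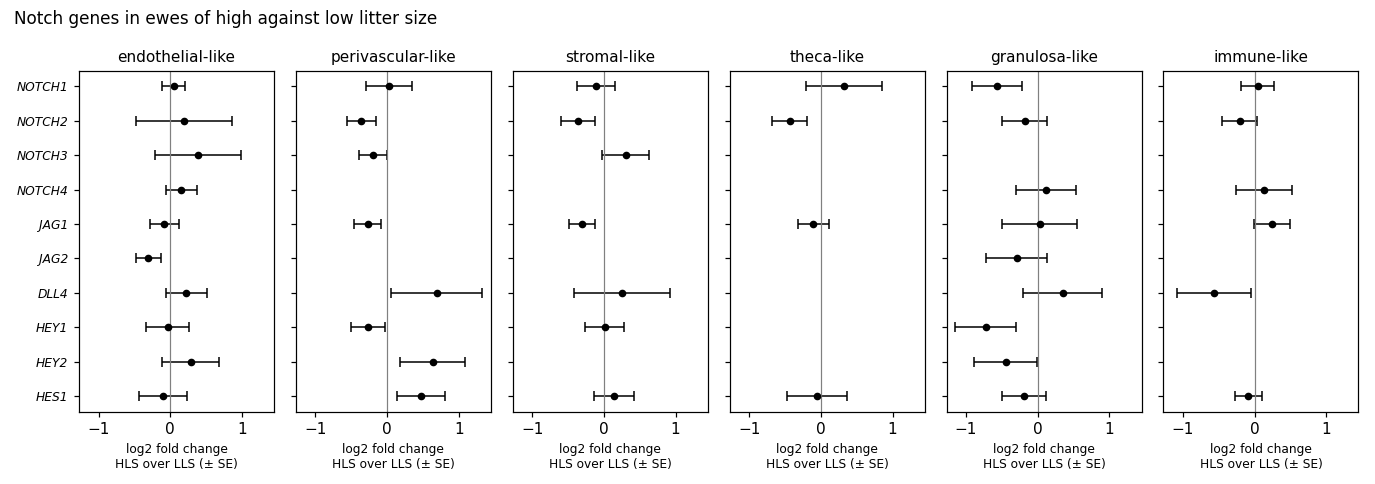
Log2 fold change of each member tested in the 3 HLS over the 3 LLS ewes (x axis) for the 10 Notch genes (y axis) in the 6 main cell types, with bars for the standard error. The points scatter on both sides of 0, from -0.73 for HEY1 in granulosa-like cells to 0.69 for DLL4 in perivascular-like cells, and none was called.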

How the data were processed

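Count matrices of ovarian single cells were read as the authors deposited them: whole-number UMI counts per gene and cell barcode, which the submitters' processing notes credit to Cell Ranger 5.0.0, with the aligner settings and genome build not given in the sources used here. The counts were not normalized. The 10 members and all gene lists were chosen with earlier results of these data known.

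Barcodes with at least 200 genes and 1000 UMIs, a ratio of log10 genes to log10 UMIs of at least 0.7, at most 10% mitochondrial and at most 5% haemoglobin UMIs were kept. Doublets were called from artificial doublets (2 per cell) at a rate of 0.8% per 1000 cells, which marked 5.22% of the cells. The 2000 most variable genes without Notch genes gave 30 principal components, from which Leiden clusters (20 neighbours, resolution 0.8, subtypes 0.5) were named by markers without correction between ewes. Python 3.11.15, numpy 2.4.6, scipy 1.17.1, pandas 2.3.3, scikit-learn 1.9.0, leidenalg 0.10.2, igraph 0.11.9 and matplotlib 3.10.9 were used.

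Counts were summed per ewe and type over at least 10 cells and tested in R 4.3.3 with edgeR 4.0.16 (filterByExpr, TMM factors, quasi-likelihood test, Benjamini-Hochberg adjustment, called under 0.05), with DESeq2 1.42.0 as an alternative. HLS and LLS were compared without covariates, types and subtypes with the ewe as a block. The fits were tested on data simulated with the same dispersion for all genes: at a fold of 2 and 4, 19% and 86% of changed genes were recovered for HLS against LLS in endothelial-like cells (15282 genes), and 90% and 100% for endothelial-like cells against the other types (13843 genes). Beside all 10 members, the text names the 3 other Notch genes with the largest called difference in each comparison. Each ewe is 1 library, so that p-values between HLS and LLS measure the spread between ewes. Between types and subtypes, with the ewe as a block, they measure how far differences between cell types vary from ewe to ewe. That error is pooled over all sums in the fit, so these p-values can be far smaller than a sign-flip test allows. The labels do not state that replicate numbers pair HLS with LLS ewes. Deviations of same-numbered ewes from their group means correlated at -0.342 to 0.2805 over the 6 types, and those of HLS2 and LLS1 at 0.0443 to 0.607. With 3 ewes a group, these correlations cannot decide whether the numbers pair ewes. The limits that counts of 0 allow cover counting error only. Promoter and protein sequences were not used here.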

Additional observations from a re-analysis of the deposited data

Results flagged for a closer look

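Among 38 sets of a member and a main type with at least 100 UMIs, 3 held an ewe far from the other 5 by Dixon's test at the 95% level, a test that flags about 5% of such groups by chance. HEY2 in perivascular-like cells was at 0.579 per 10000 UMIs in HLS3, with the next ewe at 0.293. The smooth muscle-like share of these cells was 81.1% in HLS3 and 24.8% to 49.1% in the other ewes, and its part in the HEY2 level was not tested. NOTCH2 was low in HLS1 in granulosa-like cells, at 0.354 with the nearest ewe at 0.818, and in stromal-like cells, at 0.601 with the nearest ewe at 1.23.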

How the results depend on the processing

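Between main types, 735 of 750 alternative values of the 50 called member differences kept direction and call, 15 lost the call and none turned sign. The 15 were NOTCH4 in perivascular-like cells under 11 settings, HEY2 in stromal-like cells without HLS2 and without HLS2 and LLS1, HEY2 in immune-like cells without HLS2 and LLS1, and NOTCH4 in granulosa-like cells without HLS3. Between subtypes, 617 of 657 values of the 41 called differences were kept, 33 lost the call and 7 turned sign. The number of members called fell from 5 to 3 in venous-like endothelium (3 to 5 with 1 ewe left out), to 2 without HLS2 and LLS1, and from 4 to 2 in capillary-like endothelium (2 to 4), the 3 and the 2 with 1 ewe left out each without LLS1. It rose from 3 to 5 in tip-like endothelium with sub-clusters on their own variable genes. In the CYTL1/FATE1-led cluster it rose from 2 to 5 without the filter on low counts, to 4 with sub-clusters on own genes, centred per ewe or not, and to 4 without HLS3 (2 to 4 with 1 ewe left out). It rose from 4 to 8 in mural-like cells without the filter, and from 1 to 2 in cumulus-like cells without the filter, at 2 times the cluster resolution or without LLS3 (1 to 2 with 1 ewe left out). Without the filter more genes are tested. Thinned to 1500 UMIs, 2 of the 9 ligand and target pairs were higher in all 6 ewes, in place of 5.

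With called doublets kept, HES1 turned to 0.13 in arterial-like, DLL4 to -0.34 in venous-like, and DLL4 (-0.96), HEY2 (-0.79), HEY1 (-1.06), JAG2 (-1.18) and NOTCH4 (-0.11) in capillary-like endothelium. DLL4 in venous-like endothelium also turned with a mitochondrial limit of 20% (-0.76), at 0.5 (-0.45) and 2 times (-0.82) the resolution, and with sub-clusters on own genes (-1.43) or those centred per ewe (-1.04), and JAG1 there without HLS2 and LLS1 (-0.00481). In tip-like endothelium DLL4 turned with the 20% limit (0.54), at 2 times the resolution (0.65) and on own genes (0.97), HEY1 on own genes (0.86), JAG1 at 2 times the resolution (-0.13), on own genes (-0.30) and centred (-0.0762), and JAG2 on own genes (0.56) and centred (0.60). The cause was not tested. Sub-clusters on own genes and the omission of HLS2 and LLS1 were chosen after seeing the data. Tip-like and lymphatic-like comparisons with doublets kept, tip-like at 0.5 times and capillary-like at 2 times the resolution, and capillary-like on own genes or without HLS2 and LLS1 could not be fitted.

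Between HLS and LLS no alternative called a member. The same replicate number as a block left 0 members called in all 6 types (0, 0, 0, 0, 0 and 0), though the labels do not state that the numbers pair ewes. Without a filter on low counts 0 to 170 genes were called per type in place of 0, by DESeq2 0 to 18, and without HLS2 and LLS1 0 to 3. Library sizes without TMM factors moved the median log2 fold change of all genes by -0.263 to 0.194 over the comparisons, beside which no called difference between main types turned sign. With 3 ewes a group, and 5 UMIs for the rarest member and type, small differences could not be seen.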

Other observations

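Genes with the profile most like each member over the 36 sums of 6 types and 6 ewes are given as a description; the sums share libraries and depth, and 15807 genes were read. DLL4 was closest to VWF (Pearson r = 0.972), CLDN5 and MECOM, JAG2 to PDE2A (0.938), PTPRB and FLT1, and NOTCH4 to EHD4 (0.935), ZNF366 and NOD1. NOTCH1 was closest to PDE4B (0.974), LRRC8C and C1H1orf54, and NOTCH2 to TENT5A (0.956), ZNF655 and SLCO3A1. NOTCH3 was closest to IRAG1 (0.958), REM1 and DGKB, HEY1 to GUCY1A1 (0.934), OLFML2A and EBF1, and HEY2 to KANK1 (0.918), MCAM and C12H1orf21. HES1 was closest to PDLIM5 (0.903), EBF1 and CPNE8, and JAG1 to NCK2 (0.869), SNX25 and ACTN4. Among the members themselves, JAG2 and DLL4 (0.906), NOTCH4 and JAG2 (0.880), HEY1 and HES1 (0.868), NOTCH4 and DLL4 (0.863) and NOTCH3 and HEY1 (0.802) were the most alike, and NOTCH2 and DLL4 most unlike (-0.847).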
